A study of Mus musculus with 42 samples.

Results

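The 9 genes described here encode structural proteins of the nuclear lamina and the inner nuclear membrane. They are the A-type lamin gene Lmna, the B-type lamin genes Lmnb1 and Lmnb2, the lamin B receptor gene Lbr, the LEM-domain genes Tmpo and Lemd3, the LEM-domain partner gene Banf1, and the SUN-domain genes Sun1 and Sun2. They were chosen by name, placed by the GENCODE vM21 annotation of mm10, and make up 9 of the 21938 protein-coding genes placed the same way. Lamina-associated domains (LADs), called from LMNB1 ChIP-seq of mouse liver, were available for 14 mice. All mice were wild-type C57Bl/6 kept in 12 h light and 12 h dark. Non-synchronized mice (NS, n = 2) were taken at noon on the day before food restriction. The other mice were fasted for 24 h and then refed freely from CT0, and livers were taken at CT0, CT6, CT12, CT18, CT24 and CT30 (n = 2 mice each). The labels call the mice female in 2 fields and male in the housing protocol, so their sex is not stated here. The files hold domain borders and no expression values, so the tissue could not be checked against its marker genes. The material is whole liver, in which a contact made in some cells and a weaker contact made in all cells cannot be told apart.

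The lamina is a meshwork of A-type and B-type lamins under the inner nuclear membrane. Membrane proteins such as LBR, the LEM-domain proteins and the SUN proteins hold the meshwork to the envelope, to chromatin or to the cytoskeleton, and LBR and A-type lamins are known tethers of peripheral heterochromatin. LADs are long, gene-poor and mostly silent, whereas lamin genes are active in most cell types. The question asked of each gene was where its start site lay relative to the LADs, and whether that position changed with circadian time.

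None of the 9 genes was found in a LAD. Across 9 genes and 14 libraries, the start site lay in a LAD in 0 of 126 cases. The gene body overlapped a LAD in 0 of 126 cases, and none of the 44 annotated coding-transcript starts of the 9 genes lay in a LAD in any library. Over all protein-coding genes, 16.7% had the start site in a LAD in at least 1 library, and 0.83% had it there in every library. The libraries differed widely in the calls behind these counts. They held between 86 and 341 LADs covering 12.3% to 24.3% of the genome, and between 4.02% and 10.4% of all protein-coding start sites lay in a LAD. The bin size of the caller, read from the LAD starts as their largest common divisor in whole kb without the 82 of 2845 starts that lie off a whole kb, ran from 4 to 61 kb. It differed between the mice of a time point, being 61 and 4 kb at NS, 47 and 4 kb at CT0, 35 and 11 kb at CT6, 5 and 10 kb at CT12, 19 and 6 kb at CT18, 14 and 18 kb at CT24, and 31 and 46 kb at CT30 (replicates 1 and 2).

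The 9 genes lay far from LADs. The distance from the start site to the nearest LAD exceeded 1 Mb in 124 of 126 cases and 5 Mb in 99. These cases repeat the same 9 genes in 14 libraries and are not independent. No share over all genes stands beside the 5 Mb count. The exceptions at or under 1 Mb were both Tmpo, in NS replicate 2 and CT18 replicate 2. Thus 8 of 9 genes stayed over 1 Mb from a LAD in every library, beside 59.1% of the protein-coding genes with a distance in every library. The median over the 9 genes of their median distances was 7.47 Mb. It was 3.71 Mb over the protein-coding genes with a distance in every library, and 7 of 9 genes lay above the latter. In single libraries the median of the 9 genes ran from 4.66 Mb (CT18 replicate 2) to 14.3 Mb (CT30 replicate 1), where the median over all genes ran from 2.20 to 9.88 Mb. Between 5 and 8 of the 9 genes lay above the all-gene median of the same library.

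**Figure D1:**
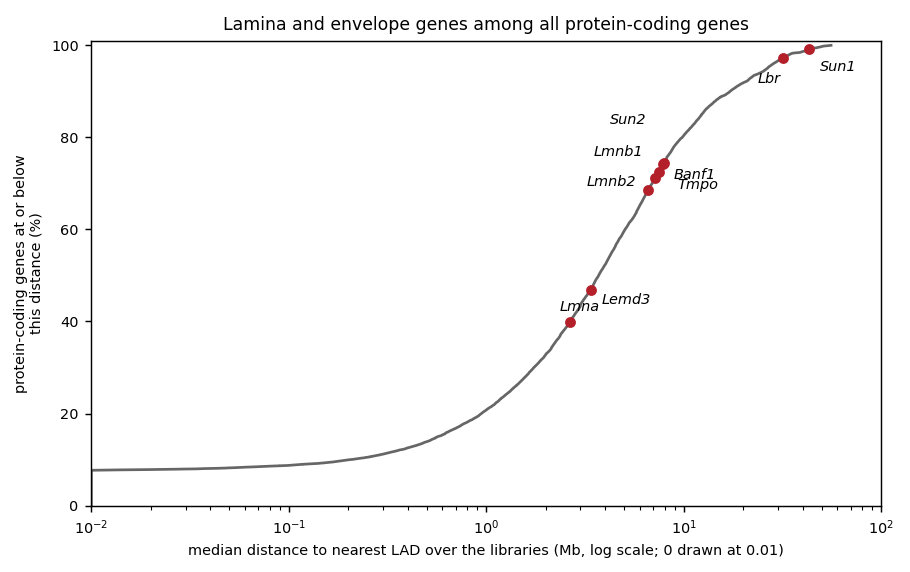
Median distance from the start site to the nearest LAD over the 14 libraries (x axis, Mb, log scale) against the percent of protein-coding genes at or below that distance (y axis). The grey line holds all protein-coding genes with a distance in every library and the red points are the 9 genes, from Lmna at 2.66 Mb to Sun1 at 43.3 Mb.

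In order of their median distance, the genes were Lmna (2.66 Mb), Lemd3 (3.38 Mb), Lmnb2 (6.62 Mb), Lmnb1 (7.17 Mb), Banf1 (7.47 Mb), Tmpo (7.89 Mb), Sun2 (7.92 Mb), Lbr (31.8 Mb) and Sun1 (43.3 Mb). Of the protein-coding genes with a distance in every library, 39.8% lay below the median of Lmna and 99.2% below that of Sun1. The ranges over the 14 libraries overlapped for every neighbouring pair in this order. The interquartile ranges did not overlap for Lemd3 and Lmnb2, for Lmnb2 and Lmnb1, and for Lbr and Sun1, with the order kept in 12, 10 and 13 of 14 libraries. They overlapped for the other pairs. For Lmnb1 and Banf1 the order held in 6 of 14 libraries, for Banf1 and Tmpo in 8, and for Tmpo and Sun2 in 7. For Lmna and Lemd3 it held in 9, and for Sun2 and Lbr in 10. The genes of these pairs did not differ beyond their spread.

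The lamin genes were described first. Lmna, which encodes lamins A and C, lies at chr3:88480147-88509956 on the minus strand. Its nearest LAD lay at 20.9 and 2.55 Mb in the NS mice, 35.7 and 2.66 Mb at CT0, 2.245 and 2.22 Mb at CT6, 2.66 and 2.60 Mb at CT12, 15.5 and 2.32 Mb at CT18, 11.2 and 11.0 Mb at CT24, and 2.17 and 15.4 Mb at CT30. The values formed a near set of 8 libraries between 2.17 and 2.66 Mb and a far set of 6 libraries at 11.0 Mb or more. Both mice were near at CT6 and CT12, both were far at CT24, and the mice of NS, CT0, CT18 and CT30 were split.

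The near set came from 1 region, chr3:90675001-93027000, which held a LAD in 8 of 14 libraries. This region is the part of the chromosome that carries S100 and peptidoglycan recognition genes, and in CT30 replicate 1 the LAD held S100a9, Pglyrp4 and Gm5849 among 17 protein-coding start sites. At CT6 the LAD measured 2.07 and 2.30 Mb and held 40 and 51 start sites, whereas at CT12 it measured 0.835 and 0.67 Mb and held none. Without this region the nearest LAD fell on the other side, within chr3:70029001-78120000, or beyond 20 Mb. Around the Lmna start site, 9.80 Mb holding 161 protein-coding start sites was free of LADs in every library.

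Lmnb1, which encodes the lamin precipitated in these experiments, lies at chr18:56707813-56753424 on the plus strand. Its distance to the nearest LAD was 14.2 and 7.31 Mb in NS, 7.08 and 4.58 Mb at CT0, 14.6 and 7.20 Mb at CT6, 4.56 and 7.18 Mb at CT12, 7.08 and 4.66 Mb at CT18, 7.29 and 7.17 Mb at CT24, and 14.3 and 6.98 Mb at CT30. The values fell on 3 levels, each set by a different LAD. A small LAD within chr18:51390001-52145000 was called in CT0 replicate 2, CT12 replicate 1 and CT18 replicate 2, with bins of 4 to 6 kb, and not in NS replicate 2, which also had bins of 4 kb. A second LAD within chr18:47630001-49726000 was called in 11 of 14 libraries. The libraries without it, replicate 1 of NS, CT6 and CT30, had the nearest LAD on the other side, within chr18:70686001-73566000, a region that held a LAD in all 14 libraries and includes the start site of Dcc, an axon guidance receptor gene. The Lmnb1 start site thus lay in an 18.5 Mb stretch with 120 protein-coding start sites that no library placed in a LAD.

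Lmnb2, which encodes the other B-type lamin, lies at chr10:80901203-80918245 on the minus strand. Its distance was above 14 Mb in NS replicate 1, 14.3 Mb in CT6 replicate 1, and between 6.05 and 7.19 Mb in the other 12 libraries. In these 12 libraries the nearest LAD lay within chr10:71393001-74872000, measured 0.86 to 3.38 Mb, and in 8 of them reached the start sites of Pcdh15, a protocadherin gene, and Zwint, a kinetochore gene. The median distance of Lmnb2 was similar in the 9 libraries with bins below 20 kb (6.63 Mb) and in the 5 with bins above 30 kb (6.55 Mb). For Lmna the same medians were 2.66 and 15.4 Mb, and for Lmnb1 they were 7.17 and 14.2 Mb.

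**Figure D2:**
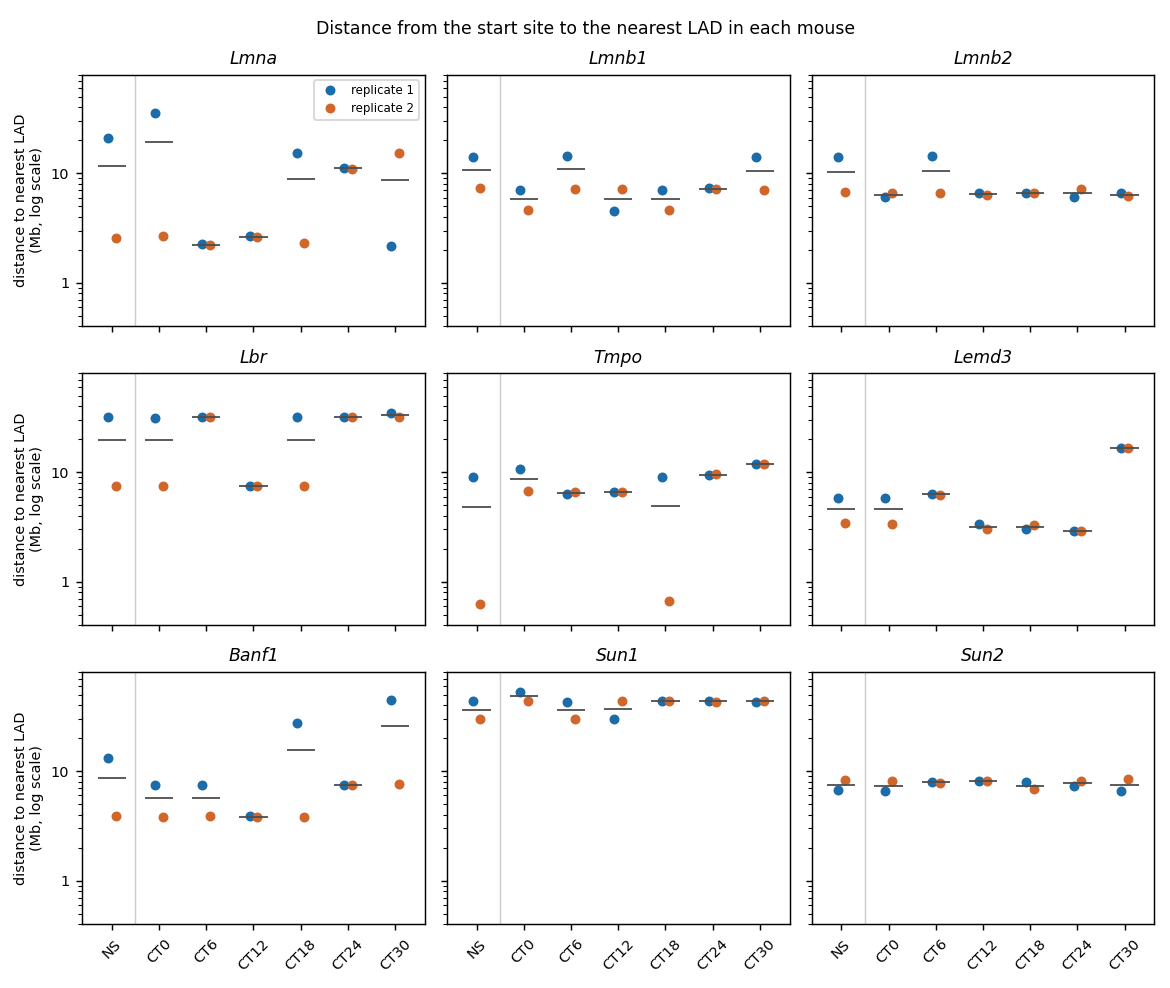
Distance from the start site to the nearest LAD (y axis, Mb, log scale) in each mouse by time point (x axis) for the 9 genes, with replicate 1 in blue, replicate 2 in orange and the mean of the 2 mice as a line. Lemd3 stands at 16.6 and 16.7 Mb in the CT30 mice and at 6.32 Mb or less in all others. Lmna, Lbr, Tmpo and Banf1 differ widely between the 2 mice of some time points.

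Lbr encodes the lamin B receptor, a membrane protein that binds B-type lamins and heterochromatin protein 1 and also has sterol reductase activity. The gene lies at chr1:181815335-181843046 on the minus strand, 13.6 Mb from the end of the chromosome, and no library called a LAD between it and that end. The distance was 31.9 and 7.43 Mb in NS, 31.6 and 7.42 Mb at CT0, 31.7 and 32.0 Mb at CT6, 7.50 and 7.44 Mb at CT12, 31.9 and 7.51 Mb at CT18, 31.9 and 32.0 Mb at CT24, and 35.0 and 32.3 Mb at CT30. It was therefore near in 5 libraries and far in 9, with nothing between 7.51 and 31.6 Mb. The near level came from a LAD of 0.62 to 0.85 Mb within chr1:173514001-174420000, with 18 to 23 protein-coding start sites, among them olfactory receptor genes such as Olfr248 and Olfr417, and Mptx1. Libraries that called it had bins of 4 to 10 kb, and those that did not had bins of 11 to 61 kb, without overlap. The part of bin size in this difference was not tested. The far level came from chr1:144008001-150360000, which held a LAD of 2.48 Mb or more in each of the 9 far libraries, and a LAD in all 14.

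**Figure D3:**
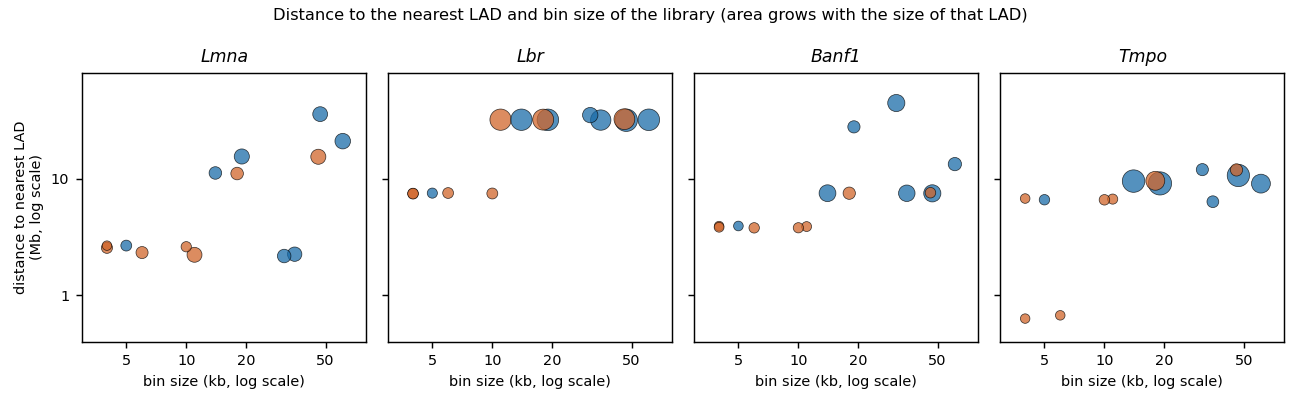
Distance from the start site to the nearest LAD (y axis, Mb, log scale) against the bin size of the library (x axis, kb, log scale) for Lmna, Lbr, Banf1 and Tmpo, with replicate 1 in blue, replicate 2 in orange and a point area that grows with the size of the nearest LAD. Lbr is near at bins of 4 to 10 kb and far at 11 kb and above, and Banf1 is near at 4 to 11 kb and far at 14 kb and above.

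The LEM-domain proteins bind BANF1, a small DNA-bridging protein, and through it chromatin. Tmpo, which encodes the lamina-associated polypeptides 2, lies at chr10:91147571-91181315 on the minus strand. Its nearest LAD lay at 9.04 and 0.629 Mb in NS, 10.6 and 6.74 Mb at CT0, 6.33 and 6.66 Mb at CT6, 6.58 and 6.57 Mb at CT12, 9.08 and 0.671 Mb at CT18, 9.51 and 9.56 Mb at CT24, and 11.9 and 11.9 Mb at CT30. The mice differed at most 1.05-fold at CT6, CT12, CT24 and CT30, whereas the difference was 14.4-fold in NS and 13.5-fold at CT18.

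Both short distances of Tmpo came from a LAD of 0.444 and 0.468 Mb within chr10:90042001-90552000 that held no protein-coding start site and was called in no other library. It is the only LAD between Lmnb2 and Tmpo in any library. In 6 libraries the nearest LAD of the other side lay within chr10:97510001-98630000. From chr10:100223001-107912000 onwards a LAD was present in all 14 libraries, and this region set the distance of Tmpo in 7.

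Lemd3 encodes MAN1, an inner membrane protein that binds lamins and SMAD proteins. It lies at chr10:120923413-120979332 on the minus strand, 9.72 Mb from the chromosome end. Its nearest LAD lay at 5.87 and 3.41 Mb in NS, 5.88 and 3.35 Mb at CT0, 6.32 and 6.23 Mb at CT6, 3.35 and 3.00 Mb at CT12, 3.03 and 3.33 Mb at CT18, 2.92 and 2.90 Mb at CT24, and 16.6 and 16.7 Mb at CT30. Both CT30 mice lay above every other mouse, and both CT6 mice lay above those of CT12, CT18 and CT24. As means this was 16.6 ± 0.0127 Mb at CT30, 6.27 ± 0.0651 Mb at CT6 and 2.91 ± 0.0170 Mb at CT24 (SD, n = 2). The SD at CT30 lay below the bin sizes of 31 and 46 kb there. It reflects that both mice had the same nearest LAD and is not a precision of the distance.

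The LADs on both sides of Lemd3 were behind these levels. Toward the chromosome end, a LAD of 0.344 to 1.37 Mb without a protein-coding start site was called within chr10:123876001-125286000 in 8 of 14 libraries, in both mice at CT12, CT18 and CT24, and in neither at CT6 or CT30. Libraries that called it had bins of 4 to 19 kb, and those that did not had bins of 11 to 61 kb. The part of bin size in this difference was not tested. On the other side, chr10:112000001-115178000, which holds Trhde, the gene of a peptidase that degrades thyrotropin-releasing hormone, carried a LAD of 1.397 to 3.18 Mb in 12 of 14 libraries and in neither CT30 mouse. The CT30 libraries had bins of 31 and 46 kb and covered 14.9% and 14.4% of the genome. NS replicate 1, with bins of 61 kb and 12.3% of the genome, did carry the LAD at Trhde, as did CT0 replicate 1 with 47 kb and 15.5%. A part of library coverage in the CT30 values was not tested.

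**Figure D4:**
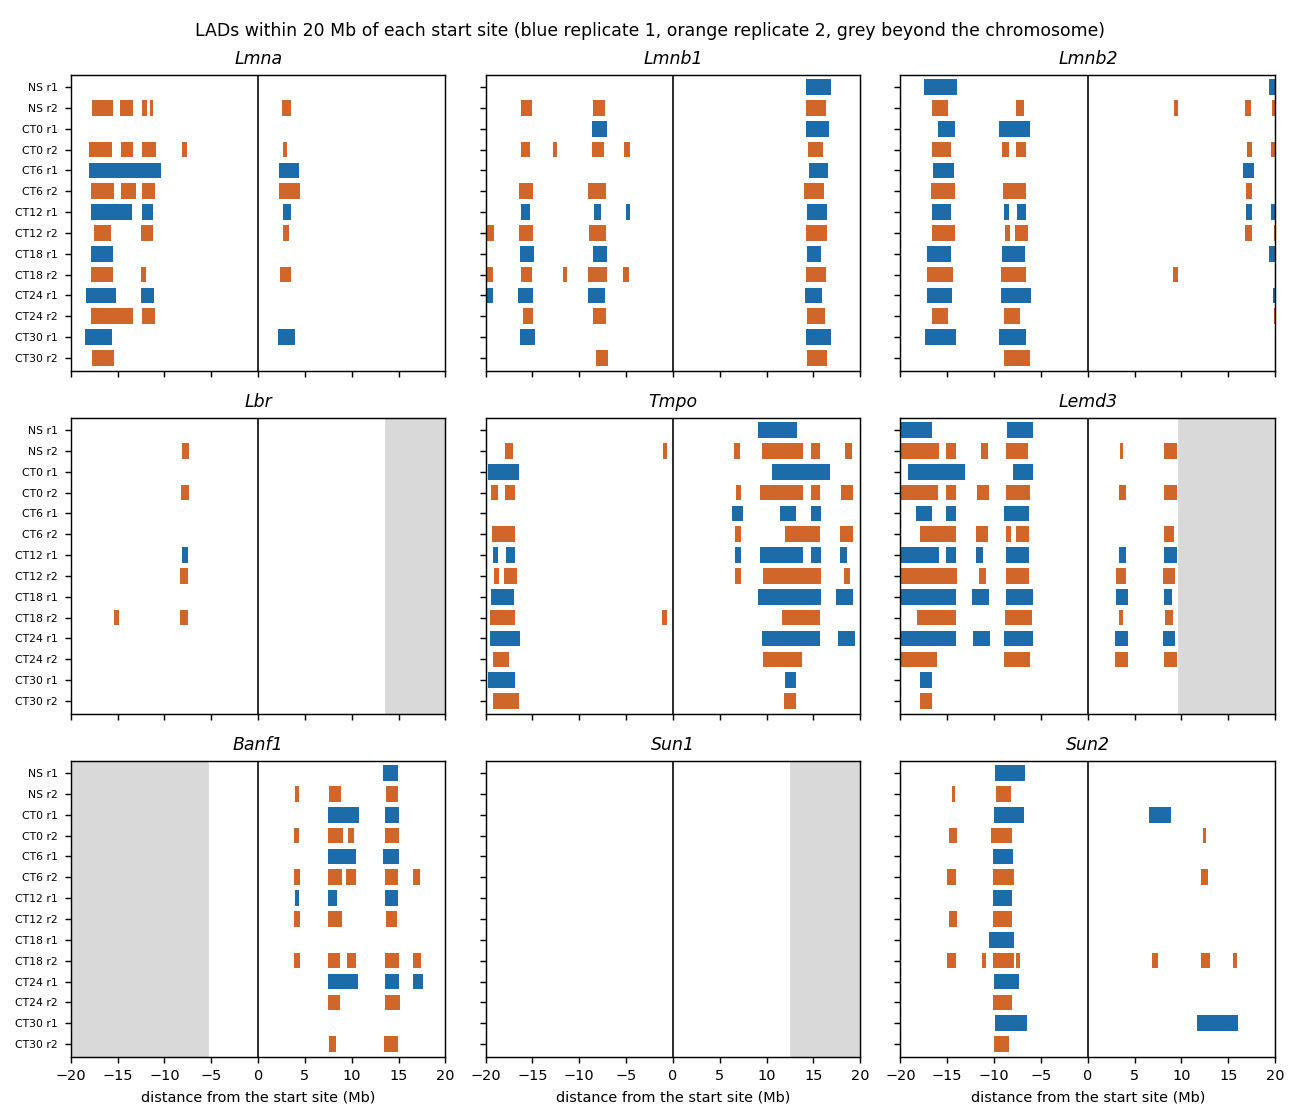
LADs within 20 Mb of each start site in the 14 libraries (rows, replicate 1 in blue and replicate 2 in orange), with the distance from the start site in Mb on the x axis and grey beyond the chromosome. No LAD reaches a start site, Sun1 has none within 20 Mb in any library, and both CT30 rows of Lemd3 are empty until 16.6 Mb.

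Banf1, the gene of the barrier-to-autointegration factor that LEM domains bind, lies at chr19:5364638-5367168 on the minus strand, close to the low-numbered end of its chromosome, and had no LAD on that side in any library. The distance on the other side was 13.3 and 3.91 Mb in NS, 7.46 and 3.82 Mb at CT0, 7.48 and 3.87 Mb at CT6, 3.92 and 3.78 Mb at CT12, 27.7 and 3.78 Mb at CT18, 7.48 and 7.48 Mb at CT24, and 44.4 and 7.56 Mb at CT30. The near level, in 6 libraries, came from a LAD of 0.436 to 0.702 Mb within chr19:9144001-9846000 that held no protein-coding start site. As for Lbr, the libraries that called it had the smaller bins, 4 to 11 kb against 14 to 61 kb, and the part of bin size was not tested. In 5 further libraries the nearest LAD held 25 to 46 protein-coding start sites, olfactory receptor genes such as Olfr1444, Olfr1445 and Olfr1449 among them.

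The SUN proteins span the inner nuclear membrane and bind nesprins in the LINC complex, which links the lamina to the cytoskeleton. Sun1 lies at chr5:139200637-139249840 on the plus strand and was the gene farthest from LADs. No library called a LAD between it and the chromosome end at 12.6 Mb. The distance on the other side was 29.8 Mb in NS replicate 2 and CT6 replicate 2, 29.9 Mb in CT12 replicate 1 and 53.4 Mb in CT0 replicate 1, and lay between 43.2 and 43.7 Mb in the other 10 libraries. The 3 nearer LADs measured 0.475 to 0.58 Mb and held 7 or 8 start sites, including the vomeronasal receptor gene Vmn2r14. The 42.4 Mb from there to the chromosome end, with 571 protein-coding start sites, was free of LADs in all 14 libraries.

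Sun2 lies at chr15:79724070-79742536 on the minus strand and had the steadiest distance of the 9 genes, from 6.52 to 8.40 Mb with a median of 7.92 Mb. Its LAD within chr15:69217001-73222000 was called in all 14 libraries, and 1.42 Mb of it was covered in every one. The start site of Fam135b lay in that LAD in some libraries and outside it in others, as the border on the side of Sun2 lay between 6.52 and 8.40 Mb from it. In CT0 replicate 1 and CT18 replicate 2 a LAD on the other side, at 6.55 and 6.86 Mb, was nearer. These had the highest GC content of all nearest LADs, 46.6% and 45.9%, where the median for Sun2 was 38.4%.

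The test over circadian time called none of the 9 genes. For each gene, the log2 of the distance in kb plus 10 was compared between the 6 CTs by an F ratio, and an exact permutation p was had from all 10395 ways to split the 12 libraries in 6 pairs. At a Benjamini-Hochberg adjusted p below 0.05, 0 of the 9 genes and 0 of 20384 genes tested (0%) were called, the smallest adjusted p being 0.280. At an unadjusted p below 0.05 in the exact permutation test it was 1 of the 9 genes, Lemd3, and 1119 of all genes (5.49%). Lemd3 had F = 31.7, exact permutation p = 0.00106 and adjusted p = 0.415, and over the alternatives tried the adjusted p ran from 0.187 to 1. Lbr had an exact permutation p of 0.0734. The other 7 genes ran from 0.416 (Lmnb1) to 0.939 (Sun2). With LADs of at least 1 Mb the count was 2 of 9, through Lbr (exact permutation p = 0.0381). Of all genes tested, 9.84% passed there. Leaving out CT18 replicate 1 (for Tmpo) or CT0 replicate 1 (for Lbr) removed 1 of 2 mice that differed 13.5-fold and 4.26-fold. The mouse left alone adds no spread between mice, so these fits cannot decide on a change over time.

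The largest fold differences between the mice of a single time point were those of Tmpo (14.4) and Lmna (13.4). Of the 63 combinations of gene and time point, 16 had more than a 2-fold difference in distance between the 2 mice, 4 of them for Lmna, 3 each for Lbr and Banf1, and 2 each for Lmnb1, Lmnb2 and Tmpo. Lemd3 differed at most 1.75-fold between mice, Sun1 1.46-fold and Sun2 1.29-fold. The highest distance over the lowest was 18.9 for Tmpo, 16.5 for Lmna, 11.8 for Banf1, 5.75 for Lemd3, 4.71 for Lbr, 3.19 for Lmnb1, 2.36 for Lmnb2, 1.79 for Sun1 and 1.29 for Sun2. The median of these ratios, 4.71, compares with 5.75 over the 17250 genes that were in no LAD in any library, and 4 of 9 genes lay above that value.

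LAD coverage within 2.5 Mb of the start site was 0 in every library for 7 of the 9 genes. Lmna had coverage above 0 in 4 libraries, at most 6.70%, and Tmpo in 2, at most 9.36%. By the same exact permutation test, 0 of these 2 genes and 0 of 13402 genes (0%) were called at an adjusted p below 0.05. At an unadjusted p below 0.05, 0 of the 2 genes and 680 genes (5.07%) passed, with exact permutation p = 0.273 for Lmna and 1 for Tmpo. Among the CT libraries, Tmpo had coverage in CT18 replicate 2 alone, so every split into pairs gave the same spread. Its p, with or without CT18 replicate 1, was fixed in advance by that and cannot decide on a change over time. For Lmna, leaving out CT30 replicate 2 leaves CT30 replicate 1 alone, with 6.70% coverage and no spread between mice. That fit cannot decide on a change over time either.

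Entrainment was examined by setting the 2 NS mice against the 12 CT mice. The NS mice had not been fasted and refed and were taken at noon only. Entrainment, feeding and clock time therefore cannot be told apart here. The difference in mean log2 distance, NS minus CT, ran from -1.51 for Tmpo to 0.50 for Lmnb1 and was positive for 3 of 9 genes, Lmna, Lmnb1 and Lmnb2. Except for Lmnb1, which was positive with either mouse, these signs rested on single NS mice. With replicate 1 alone the difference was 1.98 for Lmna, 0.98 for Lmnb1, 1.01 for Lmnb2 and 0.40 for Tmpo. With replicate 2 alone it was -1.05 for Lmna, 0.02 for Lmnb1, -0.03 for Lmnb2 and -3.42 for Tmpo. In an exact two-sided permutation test over all 91 choices of 2 libraries, 0 of 9 genes and 0 of 20625 genes (0%) had an adjusted p below 0.05. The smallest p that 91 choices allow is 0.0110. After adjustment over 20625 genes, no gene could be called unless a large share of all genes reached that p. The 0 calls were thus close to fixed by the design. At an unadjusted p below 0.05 it was 0 of 9 genes and 560 genes (2.72%), and 1 of 9, Lmnb2, without CT6 replicate 1 (exact permutation p = 0.0256) or with LADs of at least 1 Mb (0.0220). The exact permutation p of the 9 genes ran from 0.0659 (Lmnb2) to 0.989 (Banf1). For NS against CT0 alone, 2 mice against 2 allow no p below 0.333, and the values of both groups stand above without a test.

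The size of the nearest LAD also varied with the library. It was under 1 Mb in 34 of 126 cases, 33 of them among the 81 cases from the 9 libraries with bins below 20 kb and 1 among the 45 cases from the 5 libraries with bins above 30 kb. Its median ran from 1.00 Mb for Banf1 to 5.08 Mb for Lbr, and the largest nearest LAD, 8.27 Mb, belonged to Sun1 in CT0 replicate 1. Base pairs that all 14 libraries covered lay farther out. Such a core was nearest for Sun2, at 8.40 Mb, followed by Tmpo at 11.9 Mb and Lmnb1 at 14.6 Mb, and it lay at 16.7 Mb for Lemd3, 22.2 Mb for Lmnb2, 35.0 Mb for Lbr, 41.7 Mb for Lmna, 45.1 Mb for Banf1 and 53.4 Mb for Sun1. Tmpo, Lmnb2 and Lemd3, all on chromosome 10, share the same core of 1.19 Mb, chr10:103114001-104300000.

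The surroundings of the 9 genes were compared with those of all genes. The 1 Mb around the start site had a GC content of 42.5% (Tmpo) to 53.7% (Lmnb2), and 7 of 9 genes lay above the all-gene median of 44.1%. The nearest LADs of each gene had medians between 36.8% (Lbr) and 41.0% (Sun1). Gene density varied more, from 3 other protein-coding start sites within 0.5 Mb of Tmpo to 58 for Lmnb2, with an all-gene median of 15 and 4 of 9 genes above it. Lmnb2, Banf1, Lmna and Sun2 had 28 or more such neighbours, whereas Lemd3, Lmnb1 and Lbr had 5 to 8.

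Their promoters were mostly rich in CpG. The 200 bases before the RefSeq start were matched for 8 of the 9 genes and held between 1 (Lmna) and 30 (Tmpo) CpG, with a median of 23 against 9 over 16522 protein-coding promoters. The motif GGGCGG, read on both strands, was present in 8 of 8 windows and in 42.7% of all windows, and CCAAT, on both strands, in 6 of 8 and in 31.8%. The RefSeq starts of Lmna and Tmpo lie 6604 and 9696 bp from the GENCODE start sites used for the distances. The 6 windows within 1 kb of the GENCODE start site held 13 to 28 CpG, with GGGCGG in 6 and CCAAT in 5. The windows of Lmnb2, Lbr and Sun1 are printed because they lie within 1 kb of the GENCODE start site, carry no annotated exon, and belong to a lamin, a lamin receptor and a SUN gene whose nearest LADs lay at median distances of 6.62, 31.8 and 43.3 Mb. They are from GRCm38.p6 (mm10), at chr10:80918246-80918445 on the minus strand, chr1:181842402-181842601 on the minus strand and chr5:139200437-139200636 on the plus strand, written 5′ to 3′ with CpG in capitals.
Lmnb2: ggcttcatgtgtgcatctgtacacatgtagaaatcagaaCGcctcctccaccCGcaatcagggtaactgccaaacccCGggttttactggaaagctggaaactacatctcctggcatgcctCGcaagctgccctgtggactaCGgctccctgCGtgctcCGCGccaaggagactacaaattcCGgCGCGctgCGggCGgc
Lbr: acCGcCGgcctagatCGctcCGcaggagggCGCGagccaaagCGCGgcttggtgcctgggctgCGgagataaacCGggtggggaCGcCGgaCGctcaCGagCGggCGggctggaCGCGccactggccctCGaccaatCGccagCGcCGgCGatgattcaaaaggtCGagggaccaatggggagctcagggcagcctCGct
Sun1: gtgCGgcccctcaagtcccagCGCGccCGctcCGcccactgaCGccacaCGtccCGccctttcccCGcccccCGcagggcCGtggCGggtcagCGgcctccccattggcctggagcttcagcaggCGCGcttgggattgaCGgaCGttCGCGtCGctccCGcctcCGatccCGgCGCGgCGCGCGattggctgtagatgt
Lmnb2 has 13 CpG in its window, Lbr 25 and Sun1 28.

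The wider set of nuclear envelope genes was placed in the same way. It holds 34 further genes of LEM-domain, LINC complex, torsin, lamin processing, other inner membrane, chromatin partner and membrane nucleoporin roles. Of these, 33 were never in a LAD. The exception was Sun3, a SUN-domain gene known from testis, which lay in a LAD in 5 libraries, replicate 1 of NS, CT0, CT6, CT18 and CT30, with a median distance of 0.103 Mb. The 33 genes with a distance in every library had a median of medians of 7.04 Mb, close to the 7.47 Mb of the 9 genes, and 24 of them lay above the all-gene median of 3.71 Mb. Emd, the gene of emerin on the X chromosome, had a distance in 10 libraries, since the X held no LAD in the other 4, and it lay between 12.7 and 73.3 Mb from a LAD. The smallest medians after Sun3 were those of the nesprin gene Syne4 (1.10 Mb) and of Nrm, which encodes nurim (1.43 Mb). The largest were those of Tmem120a (39.9 Mb), the nucleoporin gene Pom121 (39.5 Mb) and Cbx5, which encodes heterochromatin protein 1 alpha (31.1 Mb).

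Over circadian time the exact permutation test called 0 of the 33 genes tested at an adjusted p below 0.05. At an unadjusted p below 0.05 it was 2, Tor1aip1 and Tor1aip2, neighbours that share their LADs (exact permutation p = 0.0381 and adjusted p = 0.812 for both), which is 6.06% of the 33 beside 5.49% of all genes tested. For NS against the CTs the same test called 0, with 0 at an unadjusted p below 0.05 beside 2.72% of all genes tested. Coverage within 2.5 Mb could be tested for 12 of these genes, with 0 called and 0 at an unadjusted p below 0.05 beside 5.07%.

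**Figure D5:**
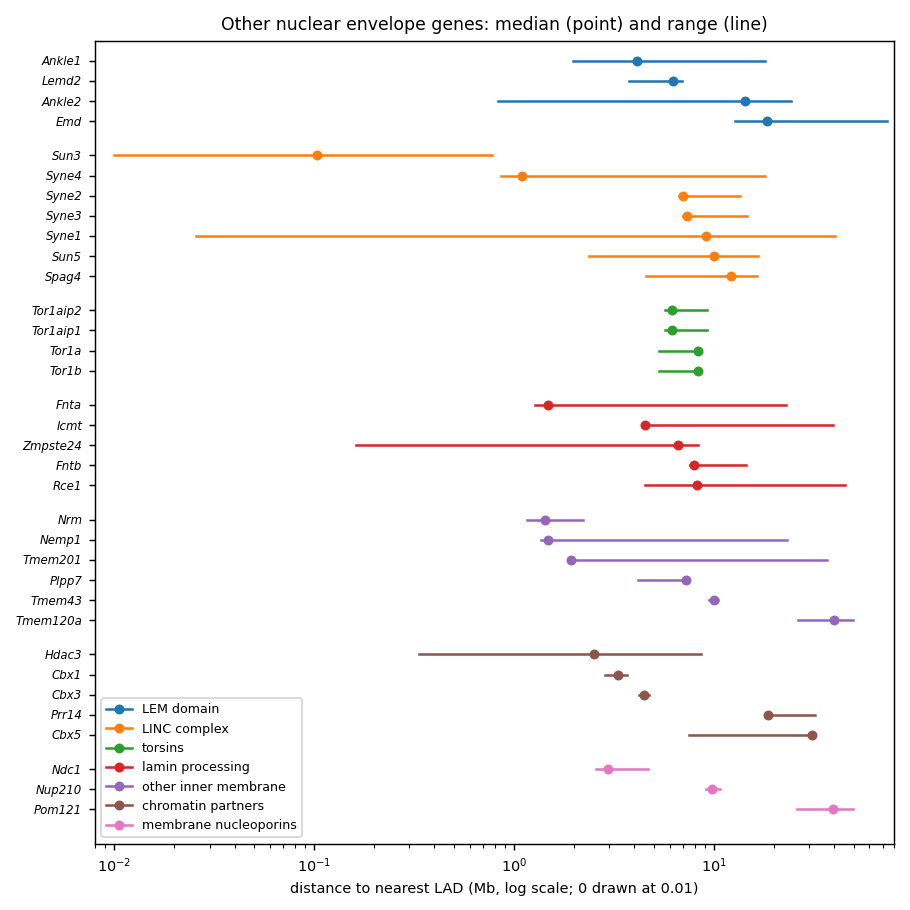
Distance from the start site to the nearest LAD (x axis, Mb, log scale) for the 34 other nuclear envelope genes, by role in colour, with the median over libraries as a point and the range as a line. Sun3 is the gene whose line reaches 0, drawn at 0.01, and Emd is drawn from the 10 libraries with a LAD on the X chromosome.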

How the data were processed

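LMNB1 ChIP-seq of liver from 14 mice was used, in 1 deposited file per mouse. The authors deposited the borders of each LAD in base pairs (mm10), with no score or count per LAD, so the read depth behind a LAD is unknown, and the error given is the spread between the 2 mice of a time point (SD, n = 2). Per the study's methods, reads were mapped with Bowtie2, duplicates removed with Picard, ChIP and input down-sampled to equal depth per chromosome, and LADs called per mouse with EDD, with gap penalty and bin size averaged over 10 runs. Bin size was therefore set per library. Replicate numbers are those of the sample titles. Inputs and RNA-seq were not analysed here.

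LAD borders were used as deposited, counted from 1. Distances were measured from the GENCODE vM21 start site on GRCm38.p6 (0 LADs ended beyond a chromosome) with Python 3.11.15, NumPy 2.4.6, SciPy 1.17.1 and pandas 2.3.3. A gene was tested where every library in the test gave it a value and these values were not all equal. The tests were checked on simulated data. P values were adjusted by Benjamini-Hochberg over all protein-coding genes. Named are all 9 genes, and of the 34 other envelope genes those in a LAD in any library, those called, and the 3 with the smallest and the 3 with the largest median distance among genes with a distance in every library. Tor1aip1, Tor1aip2 and Emd were named after their values were seen. For each gene, the gene on another chromosome with the most similar distances was also named, and at most 3 genes per LAD. The members and lists were chosen with earlier results of these data known. The alternatives were other pseudo-distances, linear distances, LADs of at least 1 Mb, the gene body, other windows, intersects and unions of the mice, autosomes, NS as a 7th group, a replicate block, leaving out each library, and, chosen after seeing the data, libraries by bin size.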

Additional observations from a re-analysis of the deposited data

How the results depend on the processing

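With 2 mice per time point and borders alone, small shifts could not be resolved, and large ones could go uncalled. Both CT30 mice of Lemd3 lay above every other mouse, yet its adjusted p was 0.415 in the exact permutation test. Before adjustment, the main tests allow no p below 9.62e-05 for time points and 0.0110 for NS against the CTs. Under every alternative that gave a value, each of the 3 tests called 0 genes, which with these limits does not measure stability. No start site of the 9 genes lay in a LAD under any of them. With autosomes only, the test over time points held the same 20384 genes as the main test, so it could not differ. In libraries with bins above 30 kb, an alternative chosen after seeing the data, the median distance of the 9 genes moved from 7.47 to 10.6 Mb, and that of all genes was 6.61 Mb. The cause was not tested. Leaving out each library in turn kept it between 7.17 and 7.48 Mb. The number of genes at an unadjusted p below 0.05 was less stable, though a CT left with 1 mouse adds no spread between mice. For time points it rose from 1119 to 2415 without CT0 replicate 2 and to 2008 with LADs of at least 1 Mb, and fell to 634 and 619 without CT12 replicate 1 or 2 and to 706 without CT30 replicate 1. For coverage it was 680, and 1488, 427, 447 and 388 without CT0 replicate 2, CT12 replicate 2, CT18 replicate 1 and CT30 replicate 1. For NS against the CTs it was 560, 1807 with LADs of at least 1 Mb, 846 on linear distances, 359 without CT6 replicate 2, and 0 without either NS replicate, where 1 library against 12 cannot pass. The correlation of the deviations of same-numbered mice exceeded 0.1 in 4 of 15 pairs of CTs (highest 0.357 for CT0 and CT6) and in 3 of 6 pairs with NS (0.521 with CT0, 0.408 with CT6, 0.191 with CT18), and it was below 0.1 in the rest. The numbers were not taken as pairs, since not every pair passed. With the replicate block, 0 genes were called in each test, and 1072, 651 and 960 genes had an unadjusted p below 0.05. Medians of single genes moved by more than 1 SD over the 14 libraries for Lmna (15.5 Mb in intersects of the mice, 15.4 Mb with bins above 30 kb), Lbr (7.51 Mb in unions and with bins below 20 kb), Lmnb1 (14.2 Mb with bins above 30 kb) and Sun2 (6.86 Mb in unions, 6.73 Mb with bins above 30 kb). That SD was taken on the distances in Mb and not on their log2, the scale of the tests. By less than 1 such SD but over 1.5 times, the median of Lemd3 moved from 3.38 to 6.32 Mb with bins above 30 kb. It was 6.18 Mb in intersects and 6.07 Mb with LADs of at least 1 Mb. That of Banf1 moved from 7.47 to 3.87 Mb in unions and 3.91 Mb with bins below 20 kb. That of Lmna moved from 2.66 to 11.2 Mb with LADs of at least 1 Mb.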

Other observations

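For each of the 9 genes, the protein-coding gene on another chromosome with the most similar distances over the 14 libraries was found by the mean absolute difference in log2 of the distance in kb plus 10. The closest match was that of Sun2 with Tpra1 (0.08), followed by Lmnb2 with Tmem171 (0.14). Lmnb1 matched Scube3 with 0.23, and Sun1 matched Mrgprd with 0.23. Lemd3 matched Tbc1d14 with 0.32, and Tbc1d14 ranged from 2.04 to 18.3 Mb with a median of 3.32 Mb. Tmpo matched Spata3 with 0.42, a gene that ranged from 0.673 to 22.04 Mb. For Banf1 it was Flot2 (0.50), for Lmna Gm6614 (0.58) and for Lbr Mrps35 (0.72). All these genes lie in the same libraries, whose bin sizes differ.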
